A study of Mus musculus with 24 samples.

Results

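The genes described here make cholesterol, sense it, carry it inside the cell, export it or oxidise it. They were 28 genes chosen by symbol, each read from its probe set with the highest mean over the arrays. A probe set was found for 27 of them, out of 19938 genes with a probe set of a single symbol. Acat2, the cytosolic thiolase at the start of the pathway, was not analysed here, which left 17 of 18 synthesis enzymes. The other measured members were the regulators Srebf1, Srebf2, Scap, Insig1 and Insig2, the intracellular sterol carrier Stard4, the efflux transporters Abca1 and Abcg1 with the receptor Nr1h3, and the oxysterol enzyme Ch25h. None of them is a lipoprotein receptor, so receptors for uptake were read from a separate list of 8 genes.

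The study measured RNA from mouse cells on 24 Affymetrix whole-transcript arrays, 4 in each of 6 groups. C57epi.1 and Bm12.4 are epithelial lines established from the mouse upper reproductive tract, the first from C57BL/6 and the second from B6(C)-H2-Ab1bm12/KhEgJ animals, whose class II MHC is mutant. Macrophages came from C57BL/6 femur marrow cultured in GM-CSF. Each kind of cell received inflammatory supernatant or was left in RPMI medium, called media here. The supernatant was medium conditioned by a Chlamydia-specific CD4 T cell clone on infected epithelial cells, given at 33% by volume with interferon-gamma brought to 4 ng/ml. Each cell line is 1 line per strain, so strain and line cannot be told apart. No label ties the replicates to separate cultures, so a p-value here covers only how these arrays spread, which may be technical.

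Cells build cholesterol from acetyl-CoA through mevalonate, farnesyl diphosphate, squalene and lanosterol. When sterol in the endoplasmic reticulum is low, Scap carries the factors encoded by Srebf2 and Srebf1 to the Golgi, where they are cut and then switch on the synthesis enzymes; when sterol is high, the Insig proteins hold Scap back. Surplus cholesterol leaves the cell through Abca1 and Abcg1, which the liver X receptors, among them the product of Nr1h3, switch on when oxysterols bind. Ch25h adds a hydroxyl group to the cholesterol side chain. Its product holds back Scap, and the gene is known to be induced by interferons and microbial products in macrophages.

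Promoter windows of 5 members are shown because their genes carry the results below: Hmgcs1 was lower in supernatant in every kind of cell, Insig1 responded differently in the lines, Mvd and Idi1 went in opposite directions between lines and macrophages, and Ch25h had the largest response. The windows run from 250 bases before to 50 bases after a RefSeq start, 5′ to 3′ on the strand of the gene, in build GRCm38.p6. Capitals mark matches to CCAAT, the box bound by NF-Y, which reads ATTGG on the other strand, and to TCACNCCAC, a form of the sterol regulatory element bound by the SREBP factors.
Hmgcs1, chr13:119690101-119690400, plus strand: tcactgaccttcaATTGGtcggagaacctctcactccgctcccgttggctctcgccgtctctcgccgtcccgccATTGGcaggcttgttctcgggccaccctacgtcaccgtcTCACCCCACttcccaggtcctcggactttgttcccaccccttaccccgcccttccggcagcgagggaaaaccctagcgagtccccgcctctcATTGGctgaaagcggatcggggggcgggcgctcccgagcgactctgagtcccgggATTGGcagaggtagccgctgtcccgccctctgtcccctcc
Insig1, chr5:28071162-28071461, plus strand: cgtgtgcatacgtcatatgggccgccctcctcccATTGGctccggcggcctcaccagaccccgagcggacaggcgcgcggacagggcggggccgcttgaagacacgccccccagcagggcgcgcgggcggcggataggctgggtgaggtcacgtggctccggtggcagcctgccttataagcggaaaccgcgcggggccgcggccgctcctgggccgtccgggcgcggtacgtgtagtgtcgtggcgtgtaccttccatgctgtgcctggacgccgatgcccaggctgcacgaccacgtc
Mvd, chr8:122443373-122443672, minus strand: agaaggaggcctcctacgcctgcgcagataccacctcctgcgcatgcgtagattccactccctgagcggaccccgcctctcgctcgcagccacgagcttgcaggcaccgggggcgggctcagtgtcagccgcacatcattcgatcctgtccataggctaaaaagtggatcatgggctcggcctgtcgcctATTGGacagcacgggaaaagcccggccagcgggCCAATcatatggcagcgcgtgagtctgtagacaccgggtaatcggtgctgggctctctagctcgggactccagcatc
Idi1, chr13:8885356-8885655, plus strand: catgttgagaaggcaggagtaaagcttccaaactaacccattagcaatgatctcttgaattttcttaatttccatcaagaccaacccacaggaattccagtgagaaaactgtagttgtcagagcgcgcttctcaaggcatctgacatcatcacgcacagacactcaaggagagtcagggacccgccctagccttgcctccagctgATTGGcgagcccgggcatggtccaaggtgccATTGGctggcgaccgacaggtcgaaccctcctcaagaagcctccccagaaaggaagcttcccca
Ch25h, chr19:34475099-34475398, minus strand: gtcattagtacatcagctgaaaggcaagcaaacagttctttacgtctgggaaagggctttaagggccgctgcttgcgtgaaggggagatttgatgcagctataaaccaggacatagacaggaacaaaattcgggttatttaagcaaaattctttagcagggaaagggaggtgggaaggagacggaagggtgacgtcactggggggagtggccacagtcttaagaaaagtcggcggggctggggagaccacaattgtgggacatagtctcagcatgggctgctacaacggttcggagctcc
The Hmgcs1 window held the sterol element 137 bases before its start and 4 CCAAT boxes. Mvd and Idi1 held 2 boxes each, Insig1 held 1, and Ch25h held no match to either motif. Of the 23 members with a window in the RefSeq table, 18 held CCAAT on either strand of a window, as did 41.1% of all 27025 genes in the table. Of the 15 synthesis enzymes with a window, 14 held it, and Acat2 was the exception. TCACNCCAC was found in Hmgcs1 alone among the members and in 1.44% of all genes. A liver X receptor element, AGGTCA repeated on 1 strand with 4 bases between, was found in no member window and in 0.0152% of all windows. An interferon-stimulated response element, GAAA repeated with 2 bases between, was found in Ebp alone and in 3.44% of all windows. These matches describe the letters of the windows only.

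The arrays were alike in scale, with medians of 5.00 to 5.19 on the log2 scale and correlations of 0.967 to 0.9975 within groups. The treatment showed in every kind of cell: 9 of 9 measured interferon check genes were higher in supernatant, and their median log2 difference was 6.57 for C57epi.1, 5.09 for Bm12.4 and 4.55 for macrophages. In the lines, 3 of 10 epithelial markers in C57epi.1 and 2 of 10 in Bm12.4 had a mean of at least 6, a level that 44.8% to 46% of all genes reached. Krt19 averaged 11.31 to 12.12 in the lines, whereas Epcam averaged 3.67 to 3.75 and Cdh1 4.30 to 4.50. Stromal markers reached 6 for 6 or 7 of 10 genes in the lines, Sparc among them at 12.04 to 12.56. In the macrophages 10 of 10 macrophage markers reached 6, and so did 4 of 8 dendritic cell markers, Itgax, Ccr7 and Clec9a among them. No T cell or neutrophil marker reached 6 in any group. In media, replicates 3 and 4 of the lines stood apart from replicates 1 and 2. Cell cycle genes, each taken relative to its own mean over the 24 arrays, averaged −0.90 in replicates 3 and 4 and 1.66 in replicates 1 and 2 of Bm12.4 in media. Interferon check genes averaged −0.93 and −3.16 in the same arrays. In C57epi.1 media the 2 sets stood at 0.65 and 1.86 for cell cycle genes. Values within each set stand beside several of the results below. The sets were noticed in these data, so a call within a set lends no separate support to a result.

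Most synthesis enzymes were lowest in macrophages, where Abca1, Abcg1 and Nr1h3 were highest. Of the 17 measured synthesis enzymes, 8 had their highest group mean in C57epi.1 in media and 10 had their lowest in macrophages in supernatant, whereas the means of Abca1, Abcg1 and Nr1h3 were highest in macrophages. Mvd, Tm7sf2, Sc5d and Dhcr7, 4 of the 17 enzymes, had their highest mean in macrophages in media. Averaged over the 17 enzymes, each relative to its own mean, the level was 0.37 ± 0.06 in C57epi.1 in supernatant and 0.57 ± 0.28 in media (SD, n = 4 each). In Bm12.4 it was −0.07 ± 0.10 in supernatant and 0.07 ± 0.34 in media, and in macrophages −0.71 ± 0.08 in supernatant and −0.23 ± 0.11 in media. Msmo1, the methylsterol oxidase, and Dhcr7 had their lowest mean in Bm12.4 in media, and Mvd, Pmvk and Tm7sf2 had theirs in Bm12.4 in supernatant. Levels of RNA in a bulk sample cannot tell fewer cells of a type from less RNA per cell.

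**Figure D1:**
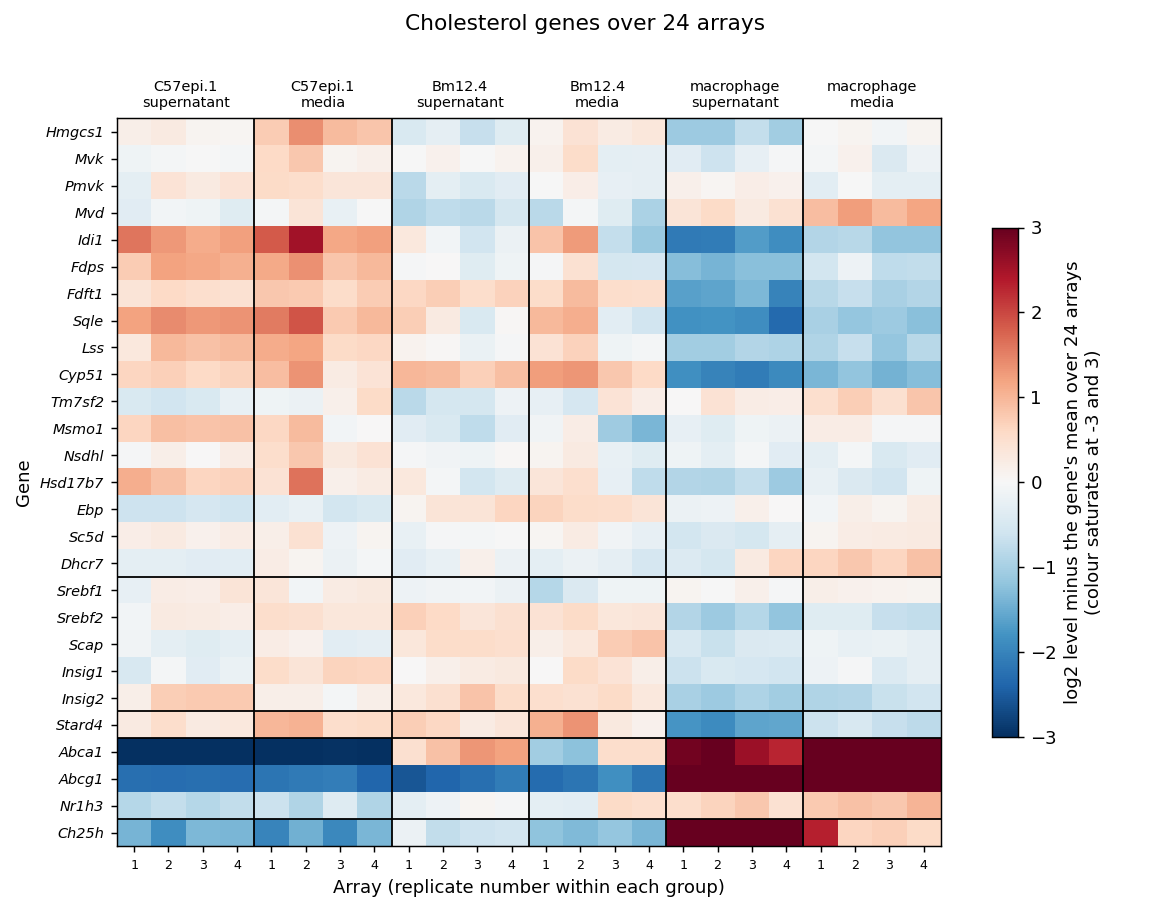
Log2 level of each of the 27 measured genes in each of the 24 arrays, relative to the mean of that gene over all arrays, with supernatant left of media for each kind of cell. Of the 17 synthesis enzymes, 10 are lowest in macrophages in supernatant and 4 are highest in macrophages in media, and Abca1, Abcg1 and Nr1h3 are highest in macrophages.

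In macrophages the supernatant lowered RNA for enzymes from the start to the end of the synthesis pathway and raised Ch25h 7.16-fold. Of the 27 measured genes 1 rose and 9 fell in macrophages, where 12.45% of all 19938 genes were called at an adjusted p under 0.05, 6.13% higher and 6.31% lower. The genes that fell were Hmgcs1, Mvd, Fdps, Fdft1, Cyp51, Sc5d, Dhcr7, Srebf2 and Stard4. The median difference over the 17 synthesis enzymes was −0.65, against −0.02 over all genes. In 17 of the 27 genes every supernatant array lay below every media array, as 11.3% of all genes did, and in Ch25h and Pmvk every one lay above, as in 9.33%. Calls here and below are from limma over all genes with Benjamini-Hochberg adjustment.

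Ch25h was read at 9.14, 8.88, 9.75 and 9.43 in supernatant, against 7.73, 6.05, 6.10 and 5.96 in media (log2 level, replicates 1 to 4). The groups did not overlap, although media replicate 1 lay apart from the other 3 media arrays. The log2 difference was 2.84 ± 0.28 (SE, n = 4 each, adjusted p 9.23e-08, limma). Replicates 1 and 2 gave 2.12, replicates 3 and 4 gave 3.56, and leaving out media replicate 1 gave 3.26.

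Hmgcs1, the synthase that makes HMG-CoA from acetyl groups, was read at 8.05, 8.06, 8.43 and 8.10 in supernatant, against 9.13, 9.22, 9.07 and 9.23 in media. All 4 supernatant arrays lay below the media arrays, and RNA fell 2-fold, by 1.0 on the log2 scale (SE 0.122, adjusted p 2.18e-06, limma). Stard4, which moves sterol between membranes, stood at 6.28, 6.16, 6.47 and 6.49 in supernatant, against 7.40, 7.56, 7.34 and 7.26 in media. Its fall of 1.04 (SE 0.198, adjusted p 0.000649, limma) was the largest decrease among the members.

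In the middle of the pathway, Fdft1, the squalene synthase, was read at 7.77, 7.82, 8.05 and 7.38 in supernatant, against 8.56, 8.70, 8.41 and 8.52 in media. It fell by 0.79 (SE 0.118, adjusted p 3.51e-05, limma), and its second probe set ran in parallel at means of 7.06 in supernatant and 7.76 in media. Fdps, the farnesyl diphosphate synthase, stood at 6.72, 6.60, 6.73 and 6.74 in supernatant, against 7.44, 7.84, 7.23 and 7.26 in media, a fall of 0.75 (SE 0.179, adjusted p 0.00568, limma). Mvd, the decarboxylase that forms isopentenyl diphosphate, was read at 8.08, 8.28, 7.97 and 8.17 in supernatant, against 8.63, 8.96, 8.65 and 8.88 in media. It fell by 0.66 (adjusted p 0.00622, limma), and this call was not made from replicates 1 and 2 alone, where the difference was −0.62 (adjusted p 0.116, limma). None of these 3 enzymes overlapped between supernatant and media.

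Further down, among the sterol steps, Cyp51, the lanosterol demethylase, was read at 6.04, 5.87, 5.77 and 5.96 in supernatant, against 6.50, 6.68, 6.46 and 6.59 in media. Sc5d, a sterol desaturase, stood at 8.38, 8.50, 8.40 and 8.66 in supernatant, against 9.03, 9.15, 9.18 and 9.20 in media. Both fell 1.57-fold with no overlap (adjusted p 0.0153 for Cyp51 and 0.000169 for Sc5d, limma). Dhcr7, the reductase of a final step, was read at 7.27, 7.15, 7.96 and 8.33 in supernatant, against 8.33, 8.50, 8.32 and 8.57 in media. Its groups overlapped, and the fall of 0.75 (adjusted p 0.00513, limma) was −1.21 in replicates 1 and 2 but −0.30 in replicates 3 and 4, where it was not called (adjusted p 0.256, limma).

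Srebf2, the main SREBP factor of cholesterol synthesis, was read at 8.42, 8.21, 8.44 and 8.12 in supernatant, against 8.94, 8.94, 8.62 and 8.56 in media. It fell by 0.47 (SE 0.11, adjusted p 0.00477, limma), with −0.62 in replicates 1 and 2 and −0.31 in replicates 3 and 4, where it was not called (adjusted p 0.113, limma). Srebf1, whose product mainly drives fatty acid genes, stood at 8.20, 8.11, 8.29 and 8.10 in supernatant, against 8.31, 8.26, 8.24 and 8.22 in media, and its interval ran from −0.37 to 0.20. Insig1 was read at 8.83, 9.02, 8.98 and 8.90 in supernatant, against 9.33, 9.45, 9.06 and 9.20 in media. The Insig1 arrays did not overlap, but its difference of −0.33 did not pass the test (adjusted p 0.0728, limma).

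Idi1 and Sqle, the isopentenyl diphosphate isomerase and the squalene epoxidase, showed differences as large as the called genes but spread more over the study's arrays. Idi1 was read at 5.81, 5.83, 6.25 and 6.07 in supernatant, against 7.05, 7.10, 6.75 and 6.74 in media, a difference of −0.92 (SE 0.377, adjusted p 0.135, limma). Sqle was read at 7.35, 7.38, 7.31 and 6.84 in supernatant, against 8.20, 8.0, 8.07 and 7.90 in media, a difference of −0.82 (SE 0.308, adjusted p 0.0934, limma). Neither overlapped, and neither was called. With only the 8 macrophage arrays in the fit, 19 of the 27 genes were called in macrophages, 2 higher and 17 lower, and 17.6% of all genes. Of the remaining enzymes, Mvk, Lss, Tm7sf2, Msmo1, Nsdhl, Hsd17b7 and Ebp had differences of −0.56 to 0.09 and were not called, nor were Scap at −0.29 and Insig2 at −0.25.

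The efflux genes showed no call in macrophages. Abcg1, which loads cholesterol onto lipoprotein particles, was read at 12.08, 11.83, 12.25 and 12.42 in supernatant, against 11.97, 12.10, 12.16 and 12.04 in media. Its difference was 0.08 with an interval of −0.17 to 0.32. Abca1, which passes cholesterol to lipid-poor apolipoproteins, stood at 10.42, 10.54, 10.09 and 9.83 in supernatant, against 10.58, 10.68, 11.17 and 10.79 in media. All 4 supernatant arrays lay below the media arrays by a mean of 0.59 (adjusted p 0.282, limma), and the difference was −0.15 over replicates 1 and 2 and −1.02 over replicates 3 and 4. Nr1h3 was read at 6.16, 6.30, 6.44 and 6.08 in supernatant, against 6.43, 6.51, 6.44 and 6.66 in media, a difference of −0.26 (adjusted p 0.399, limma).

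Cell cycle genes moved beside these results in macrophages: 6 of 17 were lower in supernatant, with a median difference of −1.01. Counts in this paragraph stand against 6.13% of all genes higher and 6.31% lower in macrophages. Dendritic cell markers moved in part, with 1 of 8 higher and 2 of 8 lower, and their summed level ran from 50.77 to 53.18 in supernatant and from 50.65 to 53.56 in media. Of 10 stromal markers 3 were lower, and their summed level ran from 54.83 to 56.77 in supernatant and from 58.77 to 59.91 in media. Whether these shifts had a part in the fall of the synthesis genes was not tested.

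**Figure D2:**
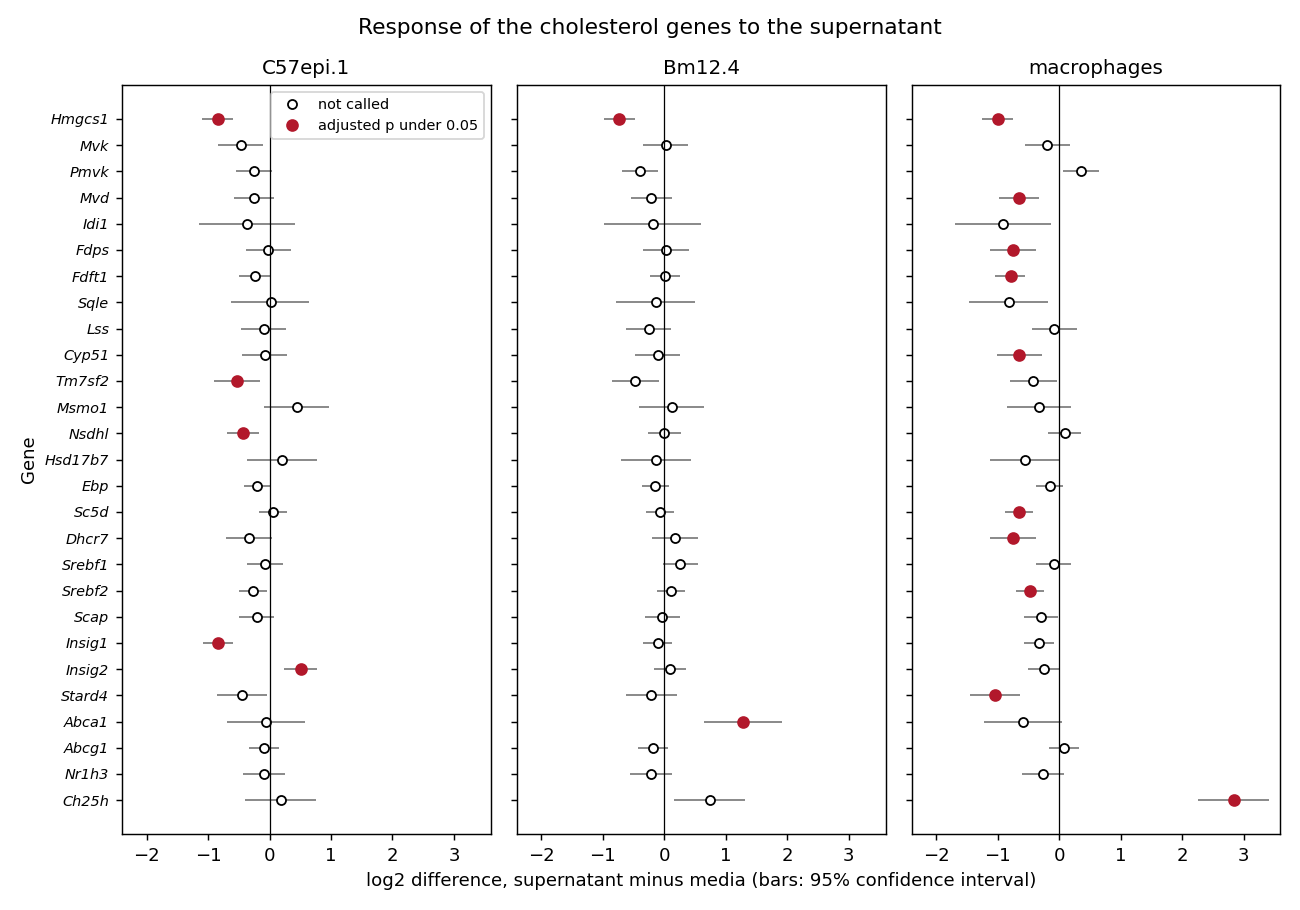
Log2 difference, supernatant minus media, of each of the 27 genes in C57epi.1, Bm12.4 and macrophages, with 95% confidence intervals from limma and filled points for adjusted p under 0.05. Hmgcs1 lies left of 0 in all 3 panels, at −0.84, −0.73 and −1.0, and Ch25h lies furthest right in macrophages at 2.84.

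In C57epi.1 the response was narrower. Hmgcs1 and Insig1 fell 1.8-fold and 1.78-fold, Tm7sf2 and Nsdhl fell by less, and Insig2 rose 1.42-fold. These were 1 of 27 genes higher and 4 lower in C57epi.1, where 19.2% of all genes were called, 8.85% higher and 10.4% lower, so the share of members called was near that of all genes. In 8 of the 27 every supernatant array lay below every media array, as 11.4% of all genes did, and in none above, as 9.2% did. Stromal markers moved beside them, 5 of 10 lower, with summed levels of 85.69 to 87.96 in supernatant and 88.64 to 98.37 in media, and their part was not tested. Hmgcs1 was read at 9.32, 9.41, 9.23 and 9.21 in supernatant, against 9.92, 10.55, 10.09 and 9.99 in media (−0.84, SE 0.122, adjusted p 2.32e-05, limma). Insig1 was read at 9.0, 9.42, 9.13 and 9.29 in supernatant, against 10.04, 9.87, 10.14 and 10.13 in media (−0.83, SE 0.116, adjusted p 1.45e-05, limma). Neither gene overlapped, and both calls were made in each set of replicates. Insig2, the other retention protein, was higher by 0.51 (adjusted p 0.00613, limma), with 9.58, 10.15, 10.20 and 10.19 in supernatant against 9.58, 9.58, 9.35 and 9.59 in media. Supernatant replicate 1 lay among the media arrays, and the difference was 0.28 over replicates 1 and 2 (adjusted p 0.336, limma) and 0.72 over replicates 3 and 4.

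The sterol reductase Tm7sf2 was lower by 0.53 in C57epi.1 (adjusted p 0.0451, limma), a call lost when any of 12 of the 24 arrays was left out and in replicates 1 and 2 alone (−0.35, adjusted p 0.224, against −0.70 in replicates 3 and 4). Nsdhl, which removes carbon from the sterol ring, fell by 0.43 (adjusted p 0.0181, limma) and was not called without C57epi.1 supernatant replicate 1 or 3 or without media replicate 2, nor in replicates 3 and 4 alone (−0.24, adjusted p 0.204, against −0.61 in replicates 1 and 2). Idi1 stood at 9.52, 9.23, 9.04 and 9.16 in supernatant, against 9.76, 10.44, 9.08 and 9.15 in media. Sqle stood at 10.37, 10.59, 10.47 and 10.51 in supernatant, against 10.72, 11.06, 9.96 and 10.14 in media. Both genes overlapped, with media replicates 1 and 2 above all supernatant arrays and replicates 3 and 4 of Sqle below them. Cyp51 did likewise, at 8.52, 8.60, 8.47 and 8.55 in supernatant, against 8.79, 9.23, 8.12 and 8.29 in media. The differences of these 3 enzymes were −0.37, 0.02 and −0.07, none of them called. Msmo1 differed by 0.44 and was called in replicates 3 and 4 alone (0.89, adjusted p 0.000285, limma), and Mvk by −0.47 and was called in replicates 1 and 2 alone (−0.80, adjusted p 0.00502, limma).

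Srebf2 was read in C57epi.1 at 9.21, 9.56, 9.55 and 9.50 in supernatant, against 9.83, 9.79, 9.64 and 9.63 in media, with no overlap but a difference of −0.27 that did not pass the test (adjusted p 0.099, limma). Srebf1 stood at 7.87, 8.35, 8.32 and 8.51 in supernatant, against 8.48, 8.05, 8.38 and 8.42 in media, and overlapped. Abca1 was at 4.18, 4.09, 4.19 and 4.30 in supernatant, against 4.22, 3.89, 4.56 and 4.32 in media, below the median of 5.41 to 5.53 over all genes. Abcg1 lay near that median, at 5.35 to 5.37 in supernatant and 5.26 to 5.57 in media, and Nr1h3 lay below it, at 4.77 to 4.93 in supernatant and 4.73 to 5.25 in media. Ch25h was at 3.99, 3.53, 4.04 and 4.03 in supernatant, against 3.42, 3.95, 3.46 and 4.03 in media, and the files hold no detection call to tell such values from background.

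In Bm12.4 the supernatant lowered Hmgcs1 and raised Abca1. These were 1 of 27 genes higher and 1 lower in Bm12.4, where 7.25% of all genes were called, 4.54% higher and 2.7% lower. The share of members called was thus near that of all genes. Ch25h alone had every supernatant array above every media array, as 5.18% of all genes did, and Hmgcs1 and Pmvk had every one below, as 5.15% did. Hmgcs1 was read at 8.69, 8.88, 8.45 and 8.79 in supernatant, against 9.26, 9.59, 9.40 and 9.48 in media, with no overlap. It fell by 0.73 (SE 0.122, adjusted p 0.00026, limma), with −0.64 in replicates 1 and 2 and −0.82 in replicates 3 and 4.

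Abca1 was read at 8.02, 8.41, 8.87 and 8.75 in supernatant, against 6.50, 6.31, 8.05 and 8.06 in media. Supernatant replicate 1 lay below media replicates 3 and 4, so the groups overlapped, while within each set of replicates both supernatant arrays lay above both media arrays. Abca1 rose 2.43-fold, by 1.28 on the log2 scale (SE 0.306, adjusted p 0.009, limma). The difference was 1.81 over replicates 1 and 2 and 0.75 over replicates 3 and 4, and both were called, in sets noticed in these data. With only the 8 Bm12.4 arrays in the fit it was not called (adjusted p 0.194, limma), and with the replicate number as a block in those arrays it was (adjusted p 0.0233, limma). That block was chosen after seeing the data, so its calls add no support. Ch25h stood at 5.22, 4.65, 4.78 and 4.81 in supernatant, against 4.19, 4.07, 4.24 and 4.02 in media. The Ch25h groups did not overlap, and the difference was 0.74 (adjusted p 0.134, limma). It was called only with that same block, chosen after seeing the data, in the Bm12.4 arrays alone (0.73, adjusted p 0.011, limma).

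The other regulators and enzymes of Bm12.4 did not pass the test. Insig1 was read at 9.50, 9.63, 9.73 and 9.76 in supernatant, against 9.48, 10.05, 9.88 and 9.65 in media, with an interval of −0.35 to 0.13. Srebf2 was at 10.02, 9.89, 9.66 and 9.78 in supernatant, against 9.74, 9.88, 9.63 and 9.66 in media, and Srebf1 at 7.98, 8.03, 8.04 and 7.95 in supernatant, against 7.27, 7.70, 7.99 and 7.99 in media. The values of all 3 regulators overlapped between supernatant and media.

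Idi1 showed the widest split by replicate in Bm12.4, at 8.25, 7.85, 7.36 and 7.76 in supernatant, against 8.77, 9.20, 7.22 and 6.80 in media. The Idi1 difference was −0.93 over replicates 1 and 2 (adjusted p 0.0174, limma) and 0.55 over replicates 3 and 4 (adjusted p 0.029, limma). Each set was called in its own direction, and the sets, noticed in these data, were not tested against each other. Sqle ran alike, at 9.91, 9.43, 8.72 and 9.21 in supernatant, against 10.13, 10.26, 8.86 and 8.58 in media. Cyp51 stood at 8.87, 8.82, 8.59 and 8.78 in supernatant, against 9.13, 9.19, 8.68 and 8.47 in media. In all 3 enzymes the media arrays of replicates 1 and 2 were the highest of the Bm12.4 arrays. Abcg1 at 5.08 to 5.55 in supernatant and 5.33 to 5.80 in media, and Nr1h3 at 5.35 to 5.69 in supernatant and 5.32 to 6.2 in media, overlapped.

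**Figure D3:**
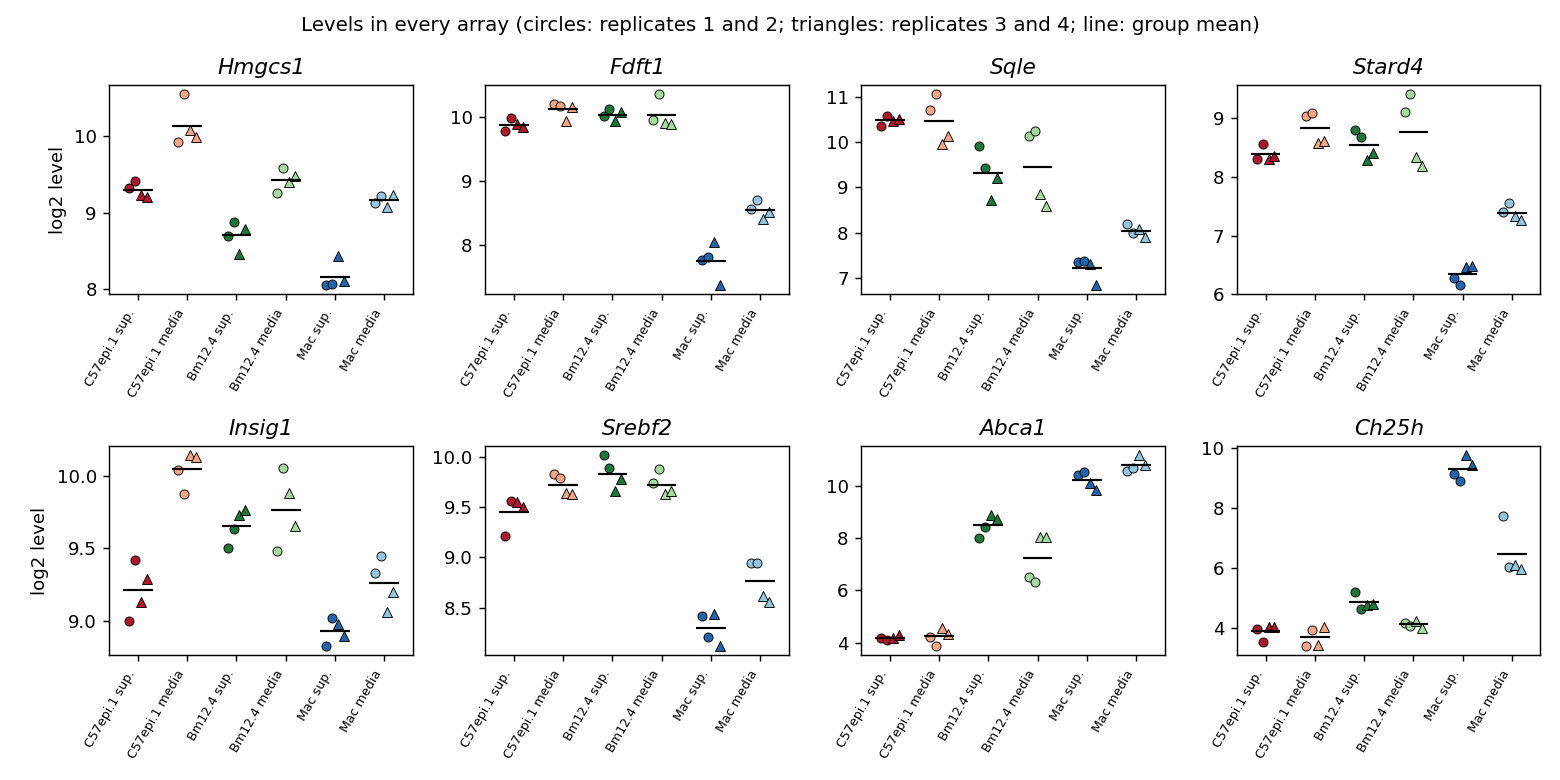
Log2 level of 8 genes in every array, by group, with supernatant (sup.) left of media for each kind of cell. Circles are replicates 1 and 2, triangles are replicates 3 and 4, and lines are group means. Hmgcs1 in supernatant lies below media in every kind of cell, Ch25h is high in macrophages at 8.88 to 9.75 in supernatant, and Abca1 in Bm12.4 media splits into a low pair and a high pair.

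The split between replicates in media covered most of the synthesis pathway. In C57epi.1 media, 14 of 17 enzymes had both arrays of replicates 3 and 4 below both of replicates 1 and 2, as 23.7% of all genes did. In Bm12.4 media it was 13 of 17, and 24.1% of all genes. Averaged over the enzymes, replicates 3 and 4 stood at 0.36 and replicates 1 and 2 at 0.78 for C57epi.1 media, and at −0.21 and 0.35 for Bm12.4 media. In supernatant the averages of the sets differed by 0.01 in C57epi.1 and −0.09 in Bm12.4. By array, 4 of 17 enzymes lay below and 2 above in C57epi.1 supernatant, as 20.5% and 17.9% of all genes did. In Bm12.4 supernatant 6 lay below and 1 above, as 23.9% and 24% did. Macrophages had 6 of 17 below and 1 above in media, as 18.1% and 15.1% of all genes. In macrophage supernatant 1 lay below and 8 above, as 19.4% and 21.8% of all genes did. Among the synthesis enzymes of Bm12.4 media, the largest splits were in Idi1, which averaged 7.01 in replicates 3 and 4 and 8.98 in replicates 1 and 2 of Bm12.4 media, in Sqle at 8.72 and 10.20, and in Msmo1 at 9.41 and 10.68. Abca1 and Nr1h3 split the other way, at 8.05 and 6.40 and at 6.16 and 5.34, while Hmgcs1 at 9.44 and 9.43 and Insig1 at 9.77 and 9.77 did not split. The sets were noticed in these data, so no test of 1 set against the other is given. Cell cycle and interferon genes split beside them, and their part in the split of the synthesis genes was not tested.

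The response itself was then compared between kinds of cell. For 6 genes the mean response of both lines differed from that of macrophages, 4 higher and 2 lower, where 8.08% of all genes differed, 4.27% higher and 3.81% lower. These comparisons share arrays with the responses above. Fdft1 differed by 0.68 (SE 0.145, adjusted p 0.00353, limma), with responses of −0.24 for C57epi.1, 0.01 for Bm12.4 and −0.79 for macrophages. Sc5d differed by 0.65 (adjusted p 0.00286, limma), with 0.06, −0.07 and −0.65 in the same order. Neither enzyme was called in either line, and the interval of Fdft1 in C57epi.1 ran from −0.49 to 0.00.

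Fdps differed by 0.75 (adjusted p 0.0355, limma), with −0.02 for C57epi.1, 0.03 for Bm12.4 and −0.75 for macrophages, and the call was kept when any of 11 of the 24 arrays was left out and lost for the other 13. Insig2 differed by 0.55 (adjusted p 0.0291, limma), with 0.51, 0.09 and −0.25, and lost its call without either of 2 macrophage arrays in supernatant or either of 2 in media. Ch25h differed by −2.38 (SE 0.343, adjusted p 4.97e-05, limma), with 0.18 for C57epi.1, 0.74 for Bm12.4 and 2.84 for macrophages. In replicates 1 and 2 alone, Ch25h (−1.68, adjusted p 0.0576), Sc5d (0.47, adjusted p 0.116), Pmvk (−0.83, adjusted p 0.0798) and Insig2 (0.25, adjusted p 0.519) were not called by limma.

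Pmvk, the phosphomevalonate kinase, was 1 of 2 synthesis enzymes with a positive difference in macrophages, where the other 15 were negative. In both lines its mean was lower in supernatant than in media. It was read at 6.78, 7.47, 7.33 and 7.48 in supernatant and 7.63, 7.58, 7.43 and 7.42 in media in C57epi.1. In Bm12.4 it was read at 6.25, 6.76, 6.60 and 6.73 in supernatant and 7.05, 7.26, 6.82 and 6.80 in media. In macrophages it was read at 7.21, 7.13, 7.26 and 7.20 in supernatant and 6.75, 7.06, 6.76 and 6.78 in media. Supernatant lay below media in Bm12.4 and above it in macrophages with no overlap, yet neither response passed the test alone (−0.40, adjusted p 0.0975, and 0.36, adjusted p 0.105, limma). The difference between the responses of lines and macrophages did, at −0.69 (SE 0.171, adjusted p 0.012, limma).

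Fdft1, Fdps and Sc5d in the lines, which that comparison uses, lay as follows. Fdft1 stood at 9.78, 9.99, 9.89 and 9.84 in supernatant and 10.20, 10.17, 9.94 and 10.16 in media in C57epi.1, and at 10.01, 10.12, 9.93 and 10.08 in supernatant and 9.95, 10.35, 9.91 and 9.89 in media in Bm12.4. Fdps stood at 8.75, 9.19, 9.16 and 9.06 in supernatant and 9.13, 9.35, 8.81 and 8.96 in media in C57epi.1, and at 7.96, 8.01, 7.62 and 7.85 in supernatant and 7.95, 8.45, 7.46 and 7.48 in media in Bm12.4. Sc5d stood at 9.13, 9.20, 9.06 and 9.15 in supernatant and 9.11, 9.40, 8.78 and 9.02 in media in C57epi.1, and at 8.72, 8.91, 8.88 and 8.92 in supernatant and 8.99, 9.18, 8.84 and 8.69 in media in Bm12.4. All 3 enzymes overlapped between supernatant and media in each line.

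Between the lines, the response of Insig1 differed by −0.72 (SE 0.164, adjusted p 0.0124, limma). It was the 1 member of 27 called, and lower, where 4.03% of all genes differed, 1.99% higher and 2.04% lower. The share of members called was thus near that of all genes. Insig1 responded by −0.83 in C57epi.1 and −0.11 in Bm12.4. The difference was −0.54 over replicates 1 and 2 (adjusted p 0.377, limma) and −0.91 over replicates 3 and 4 (adjusted p 0.00281, limma). The response of Abca1 differed by −1.34 and was not called (adjusted p 0.09, limma). Within the sets of replicates it was called, at −1.73 in replicates 1 and 2 and −0.95 in replicates 3 and 4. The sets were noticed in these data, so these calls lend no separate support. For Hmgcs1 the difference between the lines was −0.11 with an interval of −0.47 to 0.24.

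Set against macrophages, the mean of the lines held more RNA of Cyp51, Sqle, Idi1, Fdft1 and Lss and of the regulators Srebf2, Insig2, Scap and Insig1. It held less of Abcg1, Abca1, Nr1h3 and Ch25h. In supernatant 14 of 27 genes were higher in the lines and 6 lower, where 48.7% of all genes differed, 24.3% higher and 24.4% lower. In media 15 were higher and 7 lower, where 47.1% of all genes differed, 24.7% higher and 22.4% lower. Every array of the lines lay above every macrophage array for 13 genes in supernatant and 9 in media, as it did for 16.3% and 13.5% of all genes, and below for 6 in each state, as for 16.9% and 15.4%. Cyp51 was higher by 2.74 in supernatant and 2.18 in media, Sqle by 2.68 and 1.92, Idi1 by 2.53 and 1.89, Fdft1 by 2.20 and 1.52, and Lss, the lanosterol synthase, by 1.35 and 1.45. These 5 enzymes passed the test in both states, with adjusted p-values from 1.04e-14 to 3.31e-05 (limma). Every array of the lines lay above every macrophage array for each of them, except for Idi1 in media. In media, replicates 1 and 2 gave 2.47 for Idi1 and 2.44 for Sqle, and replicates 3 and 4 gave 1.32 and 1.40, all called.

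Enzymes at other steps ran the other way. Mvd was lower in the lines by 0.91 in supernatant and 1.34 in media, and Tm7sf2 by 0.69 and 0.61, all called. Dhcr7 was lower by 0.89 in media (adjusted p 3.29e-05, limma) and differed by −0.22 in supernatant (adjusted p 0.26, limma), where macrophage levels had fallen. Mvk, Msmo1 and Ebp were called in neither state. Srebf2 was higher in the lines by 1.35 and 0.96, Insig2 by 1.59 and 1.04, Scap by 0.61 and 0.44, and Insig1 by 0.50 and 0.64, whereas Srebf1 differed by −0.04 and −0.22 and was not called. Stard4 was higher by 2.11 and 1.40. The call for Hsd17b7 in media, at 0.63 (adjusted p 0.0343, limma), was lost without any of 5 arrays, and the sets gave 1.05 in replicates 1 and 2 and 0.20 in replicates 3 and 4 (adjusted p 0.357, limma). Tm7sf2 in media gave −0.89 in replicates 1 and 2 and −0.33 in replicates 3 and 4 (adjusted p 0.0981, limma).

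Abcg1 differed more between lines and macrophages than any other member. Abcg1 was 112-fold lower in the lines in supernatant and 96.3-fold lower in media. It ran from 5.08 to 5.80 in the 16 arrays of the lines and from 11.83 to 12.42 in the 8 of macrophages. Abca1 was 14.6-fold lower in supernatant and 33.5-fold lower in media, Nr1h3 2.08-fold and 2.25-fold lower, and Ch25h 30.2-fold and 5.81-fold lower, with adjusted p-values from 4.58e-24 to 1.04e-06 (limma). None of these 4 genes overlapped between lines and macrophages in either state. The folds of Abca1 average a pair of unlike lines: in supernatant it averaged 4.19 ± 0.09 for C57epi.1, 8.51 ± 0.38 for Bm12.4 and 10.22 ± 0.32 for macrophages, and 4.25 ± 0.28, 7.23 ± 0.96 and 10.80 ± 0.26 in the same order in media (SD, n = 4 each). Where the lines lay at or below the median of all genes, the measured fold depends on how far above background those probes were, which the files do not give. Cell cycle genes were higher in the lines for 17 of 17 genes in supernatant and 16 of 17 in media, beside the synthesis enzymes. Of all genes, 24.3% and 24.7% were higher, and the part of the cell cycle genes was not tested.

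**Figure D4:**
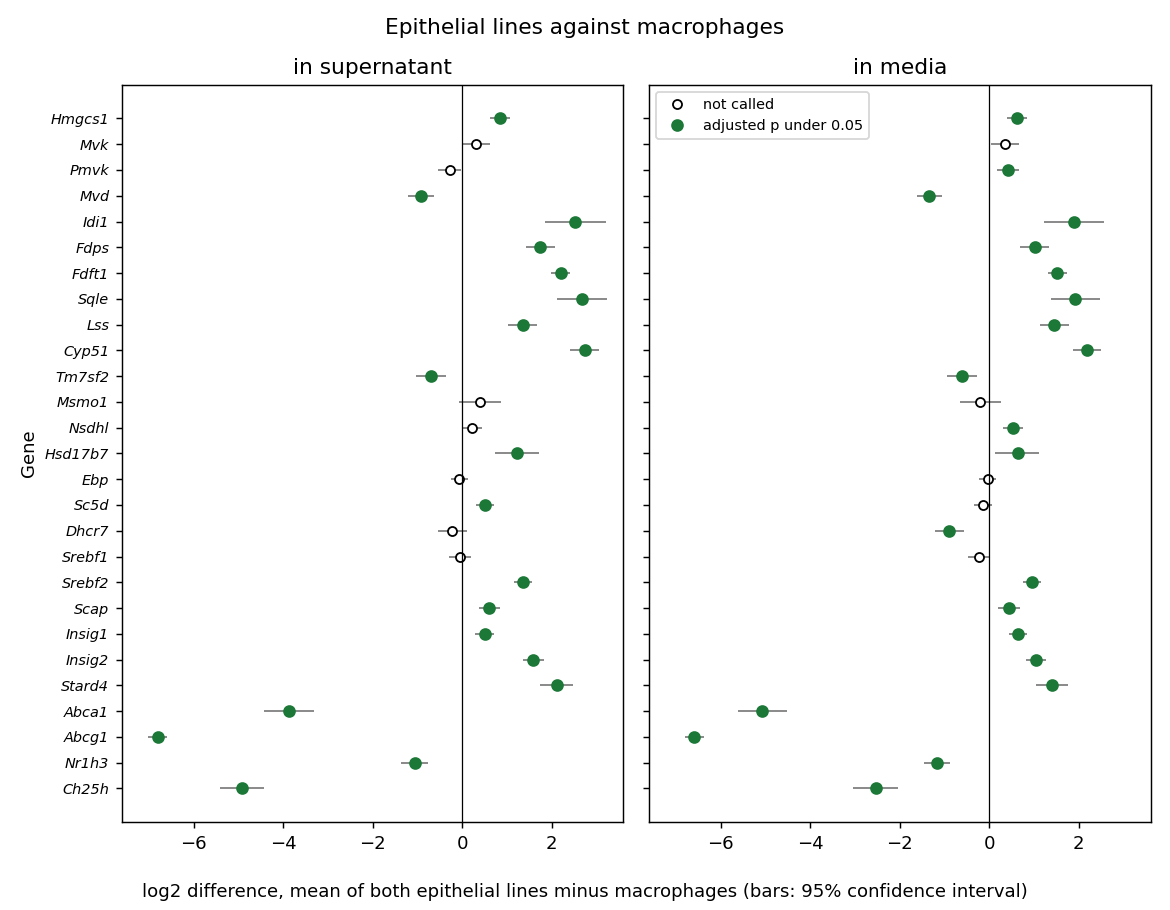
Log2 difference of each gene, mean of both lines minus macrophages, in supernatant (left) and in media (right), with 95% confidence intervals and filled points for adjusted p under 0.05. Cyp51, Sqle, Idi1 and Fdft1 lie furthest right and Abcg1 furthest left, at −6.80 in supernatant and −6.59 in media.

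C57epi.1 held more RNA than Bm12.4 of Idi1, Msmo1, Fdps, Sqle and Hmgcs1 among others, and less Abca1. In supernatant 9 of 27 genes were higher in C57epi.1 and 7 lower, where 29.9% of all genes differed, 14.3% higher and 15.6% lower. In media 10 were higher and 4 lower, where 24.4% of all genes differed, 12% higher and 12.5% lower. Every C57epi.1 array lay above every Bm12.4 array for 10 genes in supernatant and 6 in media, against 15.6% and 9.3% of all genes, and below for 7 and 4, against 17.3% and 9.93%. With only the arrays of the lines in media in the fit, 6 members were called, and 15.1% of all genes. Idi1 was higher in C57epi.1 by 1.43 in supernatant and 1.61 in media, Msmo1 by 1.29 and 0.96, Fdps by 1.18 and 1.23, Sqle by 1.17 and 1.01, and Hmgcs1 by 0.59 and 0.70. Lss, Pmvk and Mvd were higher by 0.80, 0.68 and 0.53 in supernatant and by 0.64, 0.53 and 0.57 in media. In supernatant all these enzymes separated the lines without overlap. Replicates 1 and 2 in media gave 1.12 for Idi1, 0.70 for Sqle and 0.73 for Msmo1, and replicates 3 and 4 gave 2.10, 1.33 and 1.18, all called. With only the arrays of the lines in media none of these 3 was called (adjusted p 0.102, 0.18 and 0.158, limma), nor were Lss (adjusted p 0.106), Mvd (adjusted p 0.133), Srebf1 (adjusted p 0.0591), Nr1h3 (adjusted p 0.0503) or Scap (adjusted p 0.0905). The media sets gave −0.06 (adjusted p 0.859, limma) for Scap in replicates 1 and 2 and −1.10 in replicates 3 and 4. Pmvk (0.45, adjusted p 0.208) and Mvd (0.60, adjusted p 0.0959) were not called by limma in replicates 1 and 2. Among the first 5, the lines did not overlap in media for Fdps and Hmgcs1, while they did for Idi1, Msmo1 and Sqle, and the calls for Sqle and Mvd in media were lost without any of 4 arrays and of 1 array. Fdft1 and Cyp51 did not pass the test in either state.

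Ebp, a sterol isomerase, was the enzyme that ran opposite, lower in C57epi.1 by 0.96 in supernatant and 0.92 in media. It was read at 8.07 to 8.19 in C57epi.1 and 8.78 to 9.33 in Bm12.4 in supernatant, with no overlap. Scap was lower in C57epi.1 by 0.76 in supernatant and 0.58 in media, although in media the difference was −0.06 over replicates 1 and 2 and −1.10 over replicates 3 and 4. Insig1 was lower by 0.45 in supernatant (adjusted p 0.00457, limma) and differed by 0.28 in media (adjusted p 0.0891, limma). Srebf2 was lower by 0.38 in supernatant, and Srebf1 higher by 0.59 in media.

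Abca1 was 20-fold lower in C57epi.1 in supernatant and 7.9-fold lower in media (adjusted p 1.21e-10 and 6.77e-08, limma). Its C57epi.1 arrays stood at 3.89 to 4.56 and its Bm12.4 arrays at 6.31 to 8.87. In media the log2 difference was −2.35 over replicates 1 and 2 and −3.62 over replicates 3 and 4. Nr1h3 was lower by 0.69 and 0.82, with −0.47 and −1.17 for those sets in media, and Ch25h by 0.97 in supernatant (adjusted p 0.00989, limma). Abcg1 differed by 0.04 in supernatant, with an interval of −0.20 to 0.29, and by −0.06 in media. Stromal markers moved beside these differences, 2 of 10 higher and 7 lower in supernatant (median −1.06) and 2 higher and 3 lower in media (median −0.17). Cell cycle genes were called higher for 1 of 17 in supernatant (median 0.46) and 3 of 17 in media (median 0.91). Of all genes, 14.3% were higher and 15.6% lower in supernatant, and 12% and 12.5% in media. The counts of cell cycle genes, and of stromal markers called higher, thus lay near or below the share of all genes. The part of either list was not tested.

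**Figure D5:**
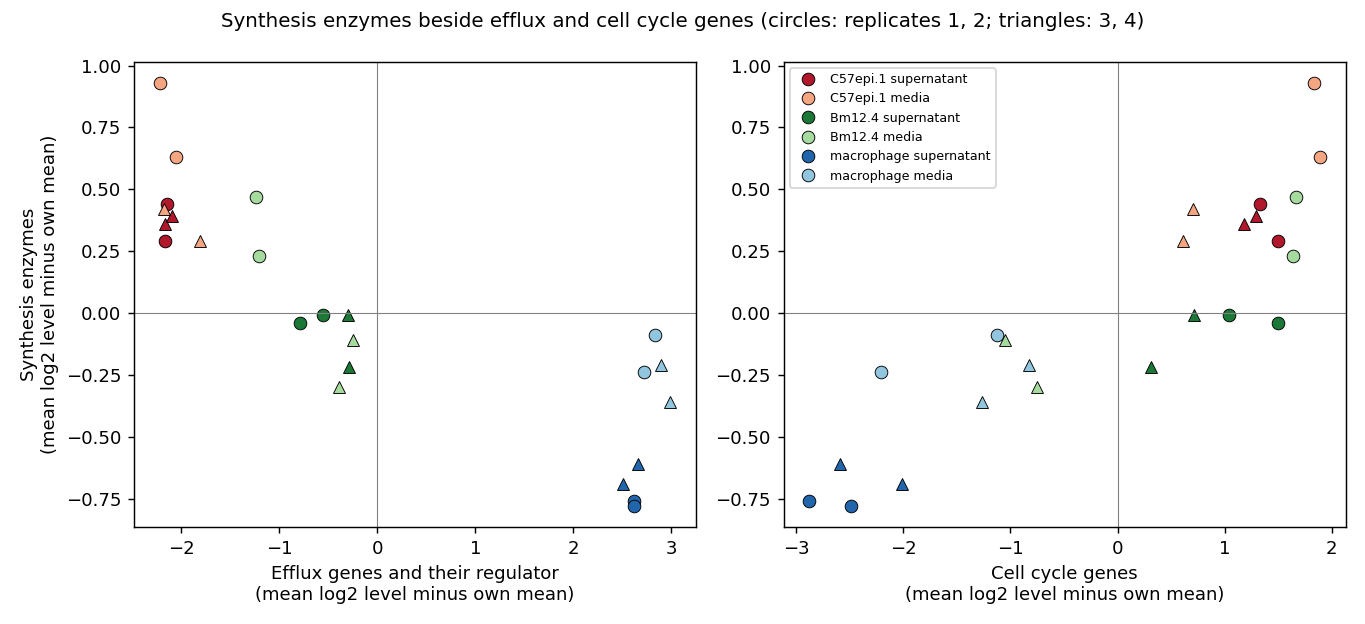
Mean level of the 17 synthesis enzymes in each array against that of the 3 efflux genes (left) and of 17 cell cycle genes (right), each gene relative to its own mean over the 24 arrays. Macrophages in supernatant lie lowest on the vertical axis, at −0.78 to −0.61, and the media arrays of each line split into circles above and triangles below.

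Neighbouring pathways were read from lists of further genes. Among 13 SREBP-driven fatty acid genes, none rose and 3 fell in C57epi.1, none rose and 1 fell in Bm12.4, and 2 rose and 1 fell in macrophages. The counts of this and the following lists stand against 19.2%, 7.25% and 12.45% of all genes called for C57epi.1, Bm12.4 and macrophages, and those of the fatty acid genes lie near these shares in the lines. Acly, which supplies cytosolic acetyl-CoA, fell by 0.45 in C57epi.1 and 0.34 in Bm12.4, and the desaturase Fads2 fell by 0.52 in C57epi.1 and 0.90 in macrophages. Acss2, an acetyl-CoA synthetase, rose by 1.01 and Me1, the malic enzyme, by 0.89 in macrophages. Against macrophages the lines had 8 of these 13 higher and 2 lower in supernatant, and 8 higher and 3 lower in media. In those comparisons 48.7% and 47.1% of all genes differed. Fads2 was higher in the lines by 4.91 in supernatant and 4.42 in media. Of the 8 measured genes of the isoprenoid branch, 5 rose and 2 fell in C57epi.1, with Ggps1, the geranylgeranyl diphosphate synthase, higher by 0.62. Fnta, the shared subunit of the prenyltransferases, fell in every kind of cell, by 0.83, 0.45 and 0.40 in C57epi.1, Bm12.4 and macrophages.

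Of 8 uptake receptors, 2 rose and 1 fell in C57epi.1, none was called in Bm12.4, and 1 rose in macrophages, the last near the share of 12.45% of all genes. In C57epi.1 the receptor Lrp8 rose by 1.67, averaging 9.12 ± 0.23 in supernatant and 7.45 ± 1.26 in media (SD, n = 4 each). Lrp1 fell by 1.28 in C57epi.1, averaging 7.41 ± 0.22 in supernatant and 8.69 ± 0.61 in media. Both spread more in media than in supernatant. In macrophages the scavenger receptor Msr1 rose by 0.65, averaging 11.02 ± 0.17 in supernatant and 10.37 ± 0.07 in media (SD, n = 4 each). Lines set against macrophages had 5 of 8 lower and 1 higher in supernatant, and 6 lower and 1 higher in media. Of all genes, 24.4% and 22.4% were lower in those comparisons. Cd36, a fatty acid and lipoprotein scavenger receptor, was lower by 9.59 and 9.66. In the lines Cd36 averaged 2.99 to 3.08, below the median of 5.41 to 5.53 over all genes. The size of its difference therefore depends on how far above background it lay there, which is not known. Vldlr, a lipoprotein receptor, differed by line: in supernatant it averaged 4.24 ± 0.14 for C57epi.1, 10.04 ± 0.11 for Bm12.4 and 5.95 ± 0.18 for macrophages, and 4.30 ± 0.22, 10.31 ± 0.41 and 5.85 ± 0.23 in media (SD, n = 4 each). Bm12.4 lay above macrophages and C57epi.1 below them.

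Of 12 measured genes of cholesterol handling and storage, 1 rose in C57epi.1, where 19.2% of all genes were called, 2 rose in Bm12.4, and 2 rose and 2 fell in macrophages. Stard5, a sterol carrier, rose by 0.81 in C57epi.1 and 0.64 in Bm12.4, and Npc2, which binds cholesterol in lysosomes, rose by 1.24 in Bm12.4. Of 8 measured partners and targets of the liver X receptors, 5 fell and none rose in macrophages, with a median difference of −0.44 against −0.02 over all genes. Of these 8, 1 rose and 2 fell in C57epi.1, and none was called in Bm12.4. The partner Rxra fell by 0.58 in macrophages and by 0.80 in C57epi.1. Lpcat3, a phospholipid acyltransferase, fell by 0.63 in macrophages. Cyp27a1, a mitochondrial sterol hydroxylase, fell in macrophages (adjusted p 1.14e-06, limma), averaging 6.32 ± 0.40 in supernatant and 7.82 ± 0.40 in media (SD, n = 4 each). It was the only gene called there among the 5 further side-chain enzymes, so Ch25h and Cyp27a1, both sterol hydroxylases, moved in opposite directions.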

How the data were processed

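RNA of 24 arrays was analysed from the deposited log2 values, 1 per probe set, which the submitters' processing notes tie to GCOS, Partek 6.2 and RMA. The order of those steps is not given in the sources used here. RMA makes the distributions of the arrays alike and compresses differences of dim probes. Probe sets with 1 symbol in the platform annotation (21789 of 28853; 1621 had several and 5443 none) were reduced to the one with the highest mean per symbol, 19938 genes. Groups and replicate numbers follow the sample titles. Means per group were fitted to all 24 arrays with limma 3.58.1 in R 4.3.3 (lmFit and eBayes, 18 residual and 3.62 prior degrees of freedom, two-sided), with Benjamini-Hochberg adjustment over all genes and calls at an adjusted p under 0.05. The fit was tested on simulated data. The number of arrays limits the precision. Members and gene lists were chosen with earlier results of these data known. Values in every array are given for members called with at least 1.5-fold in a response or a difference of responses, and for 11 genes in any case. Up to 4 called genes are named per further list. Same-numbered arrays deviated together, with correlations over 0.1, in 8 of 12 pairs (−0.14 to 0.68). The correlations ran from 0.23 to 0.68 in Bm12.4, where all 4 pairs exceeded 0.1. They ran from −0.14 to 0.40 in C57epi.1 and from −0.13 to 0.12 in macrophages. The main fit had no replicate block, so it left out any pairing by number in the lines. Alternatives were a replicate block, subsets of arrays, other variance models, array weights (statmod 1.5.0), other scalings, a filter on low values, other choices of probe set and leaving out each array.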

Additional observations from a re-analysis of the deposited data

Results flagged for a closer look

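Of 162 sets of 4 arrays, 1 for each member and group, 12 held an array that stood apart from the other 3 beyond Dixon's 95% critical value, as chance gives in about 5% of sets. In macrophages these were Ch25h in media replicate 1 at 7.73, Pmvk in media replicate 2 at 7.06, Hmgcs1 in supernatant replicate 3 at 8.43, Fdps in supernatant replicate 2 at 6.60 and Sqle in supernatant replicate 4 at 6.84. In C57epi.1 these were Lss in supernatant replicate 1 at 8.14, Ebp in supernatant replicate 3 at 8.19, Insig2 in supernatant replicate 1 at 9.58 and in media replicate 3 at 9.35, Ch25h in supernatant replicate 2 at 3.53 and Fdft1 in media replicate 3 at 9.94. In Bm12.4 it was Fdft1 in media replicate 2 at 10.35. No array supplied more than 2 of them.

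The response to supernatant differed between the lines and macrophages by the test of the difference itself for Pmvk (−0.69), Fdps (0.75), Fdft1 (0.68), Sc5d (0.65), Insig2 (0.55) and Ch25h (−2.38). It differed between C57epi.1 and Bm12.4 for Insig1 (−0.72).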

How the results depend on the processing

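Counts of members called depended on the arrays in the fit more than on scaling. With only the groups compared, 19 were called in macrophages and 6 between the lines in media, beside 17.6% and 15.1% of all genes. The other counts of this paragraph lack the share of all genes called in the same setting. They cannot tell a change in the members from a change over all genes. Array weights gave 17 in macrophages, 12 for the difference in response between lines and macrophages and 2 for that between C57epi.1 and Bm12.4. Replicates 1 and 2 alone gave 4 in Bm12.4. Replicates 3 and 4 alone gave 6 in Bm12.4, 13 for the difference in response between lines and macrophages and 2 for that between the lines, and they turned Idi1 in Bm12.4 to 0.55. Median centring gave 3 in C57epi.1. The replicate block gave 2 for the difference in response between the lines, 11 in macrophages and 6 in C57epi.1, and moved no other count by over 1.5 times. In the Bm12.4 arrays alone, a block chosen after seeing the data gave 3 members. The mean of the efflux genes in C57epi.1 in supernatant was −2.09 after quantile normalization and −2.08 after median centring, against −2.14. The cause of these changes was not tested. Leaving out each array gave 3 to 6 members in C57epi.1, 2 to 3 in Bm12.4, 10 to 11 in macrophages, 20 to 21 for lines against macrophages in supernatant and 21 to 23 in media. It gave 16 to 17 between the lines in supernatant and 13 to 17 in media, 4 to 7 for the difference in response between lines and macrophages and 1 to 2 for that between the lines. Hmgcs1 in each kind of cell, and Stard4, Fdps, Fdft1, Cyp51, Sc5d and Ch25h in macrophages, were called under every alternative run. Genes near background are limited by the unknown signal over background.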
